A study of Mus musculus with 3 samples.

Results

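Sp9 was immunoprecipitated from the olfactory bulb of newborn mice, and in 119 places of the resulting peak list a pair of neighbouring peaks carried the names of different genes. These pairs were selected on the peaks' own positions and names. A pair had to lie on an assembled chromosome, with under 2000 bp from the end of the first peak to the start of the next and with different gene names, and neither peak could belong to a run of 5 or more peaks with gaps under 10 kb. The 119 pairs held 237 of the 19979 peaks of the list, or 1.19% of the 19880 peaks on assembled chromosomes, because the peak of Mief2 belonged to 2 pairs. They carried 236 gene names.

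The tissue was olfactory bulb of CD1 pups on postnatal days 0 to 2, and the labels name neither a genotype nor a treatment. There were 2 immunoprecipitations with a homemade antibody against Sp9 and 1 input library without antibody. The deposited list gives 1 interval, 1 peak score and 1 gene name per shared peak, so no value per immunoprecipitation and no replicate error stood behind any peak. Cell type markers cannot be read from such a list, and the labels do not say whether the 2 immunoprecipitations came from separate pups.

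Sp9 is a zinc finger factor of the Sp family, needed with its relative Sp8 for the interneurons of the olfactory bulb, and the factors of this family bind GC-rich elements called GC boxes. Genes that lie head to head start close together and are read in opposite directions, away from the stretch between them. Such a stretch can serve both genes as a shared, or bidirectional, promoter. Bidirectional promoters are common in mammals, are usually rich in CpG and often lack a TATA box.

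For 16 pairs the RefSeq promoter windows of both genes (GRCm38.p6, 250 bases before to 50 after each start) overlapped, so that a single short stretch of DNA held both starts. These were 26.2% of the 61 head-to-head pairs with known starts, and no such share over all head-to-head genes is given here. For 14 of the 16 pairs the stretch could be joined to at most 300 bases, with up to 50 bases of each gene from its start inward. They are shown here because they are the most direct cases of 2 peaks named for genes with nearly the same start region. Each is printed on the plus strand, so the first gene is read to the left and the second to the right, and capitals mark GC boxes (GGGCGG on either strand, overlaps included). The first 6 shared the longest stretches of window. No peak position was carried to GRCm38.p6, so whether a peak covers any of these stretches is not known. For Lig4 and Abhd13, for example, the starts lay 37 bases apart and the peak centres 1578 bp.

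The stretch of Taf4a, a subunit of the general transcription factor TFIID, and the transcript 4921531C22Rik lies at chr2:179976600-179976899 and has 6 GC boxes. That of Gm16675 and Irf2, an interferon regulatory factor, lies at chr8:46739481-46739779 and has 3. That of Sobp and 9030612E09Rik lies at chr10:43174481-43174748 and has 1. That of the chaperonin subunit gene Cct5 and Fam173b lies at chr15:31601832-31602130 and has 1. That of Kctd10 and the ubiquitin ligase gene Ube3b lies at chr5:114380456-114380669 and has 3. That of the formin gene Fhod1 and the sodium-proton exchanger gene Slc9a5 lies at chr8:105347965-105348263 and has 3.

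Taf4a and 4921531C22Rik: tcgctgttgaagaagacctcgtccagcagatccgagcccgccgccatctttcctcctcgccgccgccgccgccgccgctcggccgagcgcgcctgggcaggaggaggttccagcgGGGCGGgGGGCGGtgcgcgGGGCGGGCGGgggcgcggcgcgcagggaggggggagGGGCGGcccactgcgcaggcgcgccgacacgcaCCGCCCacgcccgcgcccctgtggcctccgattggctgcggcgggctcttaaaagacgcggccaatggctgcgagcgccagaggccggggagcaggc

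Gm16675 and Irf2: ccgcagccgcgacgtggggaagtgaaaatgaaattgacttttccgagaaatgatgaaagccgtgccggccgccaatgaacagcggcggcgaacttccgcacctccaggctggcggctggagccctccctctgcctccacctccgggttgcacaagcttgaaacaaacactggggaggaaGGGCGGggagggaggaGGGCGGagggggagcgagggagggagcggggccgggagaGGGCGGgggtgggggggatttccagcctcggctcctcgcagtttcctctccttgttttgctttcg

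Sobp and 9030612E09Rik: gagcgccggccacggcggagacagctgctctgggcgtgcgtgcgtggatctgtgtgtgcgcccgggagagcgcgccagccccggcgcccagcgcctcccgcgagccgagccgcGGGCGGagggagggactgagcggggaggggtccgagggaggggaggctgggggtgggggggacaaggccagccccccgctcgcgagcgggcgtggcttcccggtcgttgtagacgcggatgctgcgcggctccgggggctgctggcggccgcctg

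Cct5 and Fam173b: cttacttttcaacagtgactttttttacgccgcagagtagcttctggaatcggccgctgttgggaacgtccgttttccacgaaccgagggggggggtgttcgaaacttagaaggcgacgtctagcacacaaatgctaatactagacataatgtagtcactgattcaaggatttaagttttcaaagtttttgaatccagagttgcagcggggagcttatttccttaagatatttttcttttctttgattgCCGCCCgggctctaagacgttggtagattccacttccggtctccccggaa

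Kctd10 and Ube3b: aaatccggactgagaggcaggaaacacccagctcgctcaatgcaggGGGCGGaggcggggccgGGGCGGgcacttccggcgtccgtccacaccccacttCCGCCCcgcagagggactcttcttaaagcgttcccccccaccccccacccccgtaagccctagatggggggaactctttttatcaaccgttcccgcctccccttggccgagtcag

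Fhod1 and Slc9a5: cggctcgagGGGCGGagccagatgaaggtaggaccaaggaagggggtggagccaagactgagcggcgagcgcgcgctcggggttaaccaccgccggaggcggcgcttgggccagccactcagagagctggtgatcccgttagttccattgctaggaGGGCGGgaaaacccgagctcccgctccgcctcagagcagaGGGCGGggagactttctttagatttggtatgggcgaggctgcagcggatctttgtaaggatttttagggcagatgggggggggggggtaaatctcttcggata

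A further 3 stretches are shown for the closest starts, for one of the smallest gaps between peaks, and as a case without a GC box. Capza1, an actin capping protein gene, and St7l had starts 1 base apart at chr3:104864456-104864555, with 1 GC box. Mau2, a loader of cohesin, and Sugp1, a splicing factor gene, had starts 53 bases apart at chr8:70042685-70042836, with 1 GC box. Lig4, a DNA ligase gene, and Abhd13 had starts 37 bases apart at chr8:9977631-9977766, with none.

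Capza1 and St7l: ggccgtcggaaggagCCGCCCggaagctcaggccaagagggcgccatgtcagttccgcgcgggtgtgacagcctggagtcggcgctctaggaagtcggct

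Mau2 and Sugp1: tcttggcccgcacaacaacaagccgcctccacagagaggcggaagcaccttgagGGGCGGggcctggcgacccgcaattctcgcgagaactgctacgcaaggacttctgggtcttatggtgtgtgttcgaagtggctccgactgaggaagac

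Lig4 and Abhd13: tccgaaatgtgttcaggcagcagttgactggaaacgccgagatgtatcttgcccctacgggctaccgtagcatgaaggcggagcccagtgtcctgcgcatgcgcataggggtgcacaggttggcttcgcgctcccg

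Of the 14 stretches, 9 held at least 1 GC box and 5 held none, and none (0) held the TATA box letters TATAAA. Among other genes named by a peak, 62.4% of first listed promoter windows held a GC box and 8.39% held TATAAA. Over all windows the shares were 35.7% and 13.6%. The stretches ran from 100 to 300 bases and the windows had 300, so the shares are not strictly alike, and no test was made. The GC content of the 14 stretches ran from 45.8% for Cct5 and Fam173b to 78.4% for Sobp and 9030612E09Rik. In the latter pair the peaks scored 305.98 for Sobp and 241.08 for 9030612E09Rik. In the pair with the most GC boxes, Taf4a and 4921531C22Rik, they scored 152.57 and 145.22. In the pair of Cct5 and Fam173b they scored 141.79 and 82.31, and in that of Lig4 and Abhd13 119.65 and 228.15. In the other 3 of the longest overlaps, Gm16675 and Irf2 scored 132.28 and 497.64, Kctd10 and Ube3b 196.63 and 96.28, and Fhod1 and Slc9a5 253.38 and 326.25. The number of GC boxes in these stretches was not set against the scores by a test.

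Most pairs joined genes that lie head to head. Strand was known for both genes in 88 pairs, of which 62 (70.5%, exact 95% interval 59.8 to 79.7%) were head to head, 20 pointed the same way and 6 were tail to tail. Among 18493 pairs of neighbouring genes in the RefSeq table with known strands, 27.8% were head to head, 45.3% pointed the same way and 26.8% were tail to tail. The 88 pairs include genes that are not direct neighbours. Among the 61 oriented pairs that are, 67.2% (interval 54.0 to 78.7%) were head to head. Each interval treats pairs as independent and covers counting error only. No test was made, since the pairs were chosen from the same list that is described, and since how the authors assigned names is not given; how far the naming sets the orientation was not tested.

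The share of head-to-head genes was higher with gaps under 1000 bp than above. It was 29 of 35 pairs (82.9%, interval 66.3 to 93.4%) with a gap under 500 bp and 18 of 21 (85.7%, interval 63.7 to 97.0%) from 500 to 1000 bp. From 1000 to 2000 bp it was 15 of 32 (46.9%, interval 29.1 to 65.3%), and 14 of these 32 pairs pointed the same way. The same count for successive peaks with different names and larger gaps gave 190 of 454 (41.9%) from 2 to 10 kb, 734 of 2567 (28.6%) from 10 to 50 kb and 1222 of 5380 (22.7%) above 50 kb. The share of tail-to-tail genes went the other way, from 6.82% in the adjacent pairs to 14.5%, 19.5% and 26.7% in the 3 wider classes. The interval for gaps of 1000 to 2000 bp held the 41.9% of the next class, and the intervals of the 2 classes below 1000 bp overlapped.

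**Figure D1:**
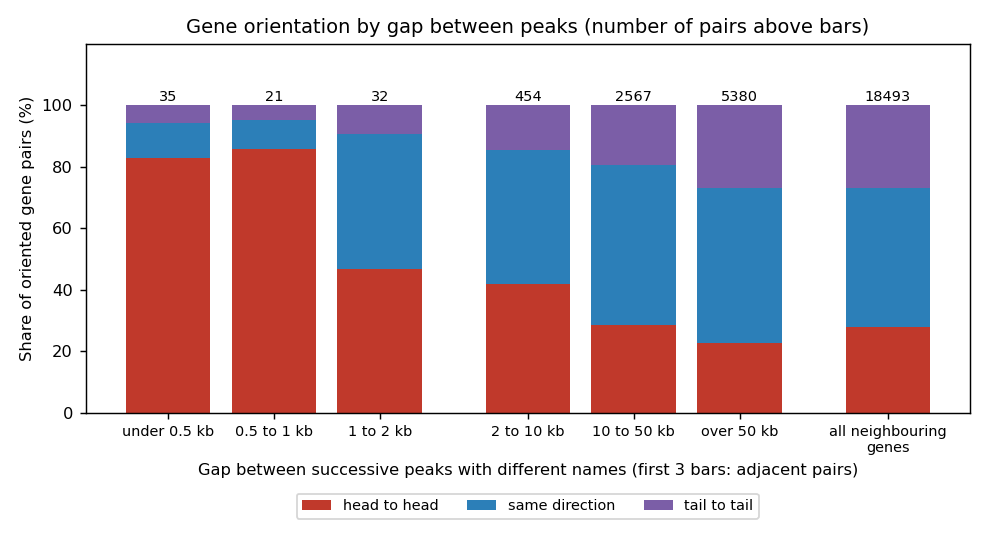
Share of gene pairs (y axis, percent) that lie head to head, point the same way or lie tail to tail, by the gap between successive peaks with different names (x axis), with all neighbouring RefSeq genes at the right and the number of oriented pairs above each bar. The head-to-head share is 82.9% and 85.7% in the 2 bars under 1 kb, 46.9% from 1 to 2 kb and 22.7% above 50 kb, against 27.8% of all neighbouring genes. The bars by gap also hold genes that are not direct neighbours.

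The named genes were mostly direct neighbours. Both names matched the RefSeq table in 118 pairs, with 214 of 236 names matched by symbol, 21 by synonym and 1 (Gm5468) not at all, and in all 118 both genes lay on the chromosome of the peaks. In 86 of the 118 (72.9%, exact 95% interval 63.9 to 80.7%) no gene of the table began between them, in 24 exactly 1 did, and in 8 there were 2 or more. The widest separation was 48 genes, for Amd2 and Amd1. These are near-identical copies of the gene of S-adenosylmethionine decarboxylase, whose reads may be split between the copies. Their peaks lay 12 bp apart, so in this gene order both peaks cannot lie at the genes they name. In successive peaks with different names, 69.2% were direct neighbours at gaps of 2 to 10 kb, 44.5% at 10 to 50 kb and 17.3% above 50 kb.

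In head-to-head pairs the peak centres mostly lay further apart than the gene starts. Both starts were known for 61 of the 62. Without regard to sign, the starts lay a median of 1076 bases apart (quartiles 333 and 1877), with 14 pairs under 300, 29 under 1000 and 47 under 2000 bases. Of 5147 neighbouring head-to-head gene pairs in the RefSeq table, 999 had starts under 300 bases apart and 1266 under 1000, crossing starts not counted. Close starts are thus common among head-to-head genes at large, and the difference from the 61 pairs was not tested. The peak centres of these 61 pairs lay a median of 1578 bp apart, and the centre distance exceeded the start distance in 49 of them. Separate peaks cannot have centres nearer than their widths allow, and the smallest centre distance of any pair was 684 bp. The choice of pairs thus favours this count, and by how much was not tested. Each distance was taken within its own build, and the nearest pair of starts was used where a gene had several. Spearman's correlation between both distances was 0.537 across the 61 pairs, which share their libraries and whose centre distance the gap limit bounds.

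In 4 head-to-head pairs the starts crossed, so that the transcripts overlap at their 5′ ends. They were Nkx2-2os with Nkx2-2, a homeobox gene (start distance -2319 bases), D930032P07Rik with the zinc finger gene Glis3 (-1853), 9530052E02Rik with Irs2 (-1079) and 4933439C10Rik with Zkscan17 (-987). At the other end stood Dcst1 and Gm15417, with starts 26611 bases apart, and the histone genes Hist2h2aa1 and Hist2h3c2, with starts 6370 bases apart. Both were picked once the values were known.

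**Figure D2:**
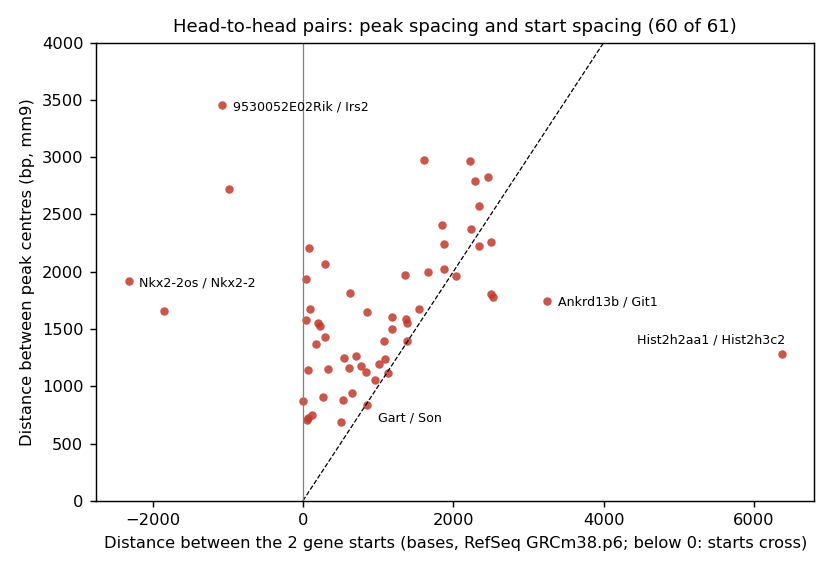
Distance between the centres of the 2 peaks (y axis, bp in mm9) against the distance between the 2 gene starts (x axis, bases in GRCm38.p6, below 0 where starts cross) for 60 of the 61 head-to-head pairs with known starts, 1 point per pair, with the line of equal distances dashed; Dcst1 and Gm15417, at 26611 bases, are left out. Without regard to sign, 49 of the 61 pairs have a larger distance between centres than between starts. The widths of separate peaks keep their centres apart by construction.

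A peak for each gene was the exception among close head-to-head genes. In the RefSeq table, 1266 pairs of neighbouring head-to-head genes had starts under 1000 bases apart that did not cross. Peaks named 1 of the 2 genes in 867 of them (68.5%), neither in 300 (23.7%) and both in 99 (7.82%), and 20 (1.58%) were adjacent pairs as defined here. With starts under 300 bases apart, 77 of 999 (7.71%) had both genes named and 11 (1.10%) were adjacent pairs. One peak over a shared promoter can carry only 1 name in this list, so a gene without a name is not a gene without a peak.

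Among 27 gene pairs written down as textbook cases of close or shared promoters, only Gart and Son formed an adjacent pair. Not all of the 27 were close head-to-head genes in the RefSeq table. Boll and Mars2, Fanci and Polg, and Dlx1 and Dlx2 were tail to tail, with starts 125551, 73935 and 17309 bases apart. Hmgn5 and Sh3bgrl were head to head with starts 82027 bases apart, and some pairs could not be oriented. The count is therefore not a share of close head-to-head genes. Both genes were named by some peak in 9 of the 27, exactly 1 in 13 and neither in 5. Gart encodes an enzyme of purine synthesis and Son a splicing factor. The peak of Gart scored 284.93 and lay on chromosome 16 from 91646663 to 91647693 (mm9, as all peak positions here), and that of Son scored 93.25 and began 3 bp after it, from 91647696 to 91648329. The Gart peak thus scored 3.056 times the Son peak, and their starts lay 852 bases apart.

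Gaps ran from 3 to 1940 bp with a median of 675 bp (quartiles 276.5 and 1252 bp), and 44 pairs had a gap under 500 bp. Adjacent peaks with the same name, chosen with the same limits, numbered 789 and had a median gap of 462 bp (quartiles 130 and 1119 bp). Mau2 and Sugp1 also had a gap of 3 bp, with scores of 174.89 and 115.9. The next smallest gaps were 12 bp for Amd2 (439.15) and Amd1 (109.28), 13 bp for the sphingomyelin synthase gene Sgms1 (436.21) and 2700046G09Rik (290.86), and 17 bp for Vps26b, of the retromer (297.9), and Ncapd3, of condensin II (109.65). Hist1h2ac (158.57) and Hist1h2bc (131.94) also had a gap of 17 bp, Gm6307 (115.12) and B230312C02Rik (125.8) one of 26 bp, and A230077H06Rik (110.53) and Vstm2b (468.6) one of 34 bp. In each of these 8 pairs the gap was small beside the width of either peak.

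At the limit of 2000 bp, Tgfbr3l and Snapc2 (gap 1940 bp, scores 122.33 and 142.48), Tmc6 and Tmc8 (1915 bp, 247.33 and 81.62) and Mief2 and Mir5100 (1906 bp, 98.84 and 191.06) were just inside. Just outside were Plekhh3 and Ccr10 (2008 bp, 352.32 and 384.43), Tk2 and Cklf (2018 bp, 86.71 and 179.62) and Evx1 and 5730457N03Rik (2040 bp, 200.21 and 319.04). The scores ran from 81.62 to 247.33 in the 3 pairs inside and from 86.71 to 384.43 in the 3 outside.

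**Figure D3:**
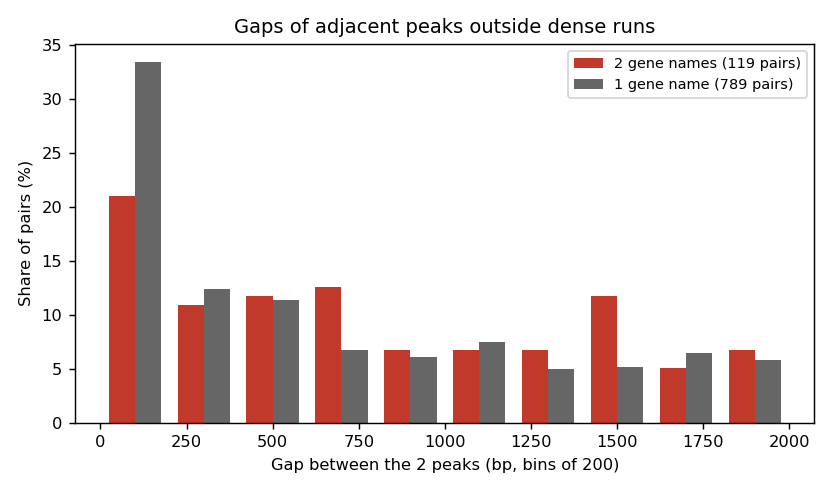
Gap between adjacent peaks outside dense runs (x axis, bp in bins of 200) as a share of pairs (y axis, percent) for the 119 pairs with 2 gene names and the 789 with 1 gene name. Both sets have their highest bar under 200 bp, and their medians are 675 and 462 bp.

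The peaks of these pairs were of ordinary height for the list. The deposited score, of unstated formula, ran from 80.34 to 1103.83 in the 237 peaks with a median of 191.2 (quartiles 121.4 and 314.3), against a median of 210.06 over the list. Scores at or above the list's median were held by 109 of the 237 peaks (46.0%, against 50% of all peaks), and scores over 500 by 22 (9.28%, against 12.1%). Member peaks had a median width of 947 bp, against 986 bp over all placed peaks. None of these differences was tested.

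Within a pair, one peak usually stood well above the other. The higher score was a median of 1.885 times the lower (quartiles 1.365 and 2.865), with a median of 296.7 for the higher and 123.6 for the lower peak. The ratio was under 1.5 in 37 pairs and over 3 in 29. Both peaks were at or above the list's median in 25 pairs (21.0%), 1 of them in 59 and neither in 35. The first peak along the chromosome was the higher in 60 pairs and the second in 59. The higher peak was also the wider in 92 of the 119 pairs, with a median width of 1178 bp against 800 bp.

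This spread was much like that of other successive peaks. The median ratio was 1.815 for adjacent peaks with the same name and 1.879, 1.834 and 1.835 for different names at 2 to 10, 10 to 50 and over 50 kb. Spearman's correlation between the scores of the first and the second peak was -0.104 across the 119 pairs and 0.0237 across the 789 pairs with 1 name. The gap and the ratio had a Spearman correlation of 0.0354 across the 119 pairs. The points of these correlations share their libraries, and all 3 values were small. Head-to-head pairs had a median ratio of 1.86 and pairs pointing the same way 1.91.

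**Figure D4:**
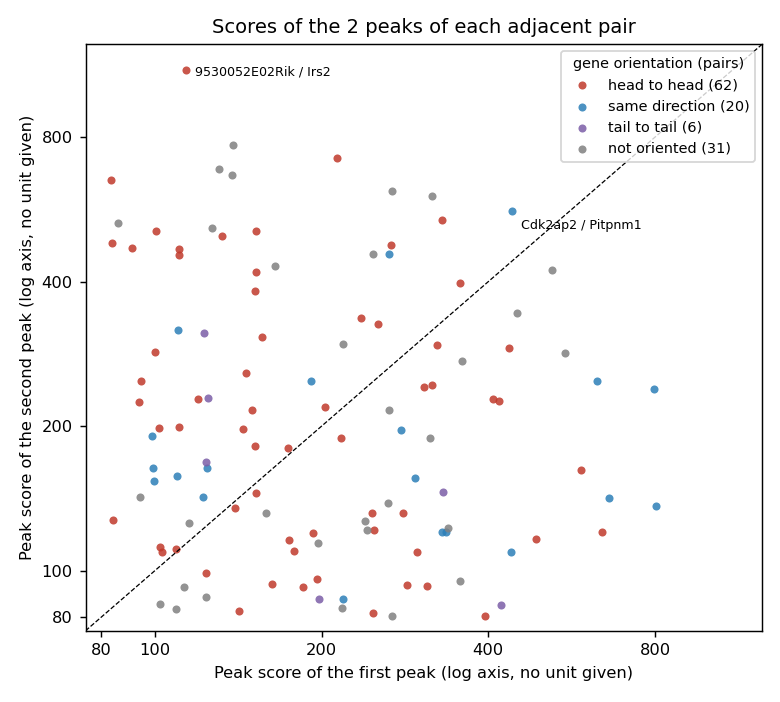
Deposited score of the second peak (y axis, log) against that of the first peak along the chromosome (x axis, log) for the 119 pairs, 1 point per pair, coloured by the orientation of the named genes, with the line of equal scores dashed. The points scatter on both sides of the line without a trend (Spearman's correlation -0.104), and the 4 orientation classes are mixed.

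The widest contrast belonged to the insulin receptor substrate gene Irs2. Its peak scored 1103.83, above 99.2% of all peaks, and spanned 3583 bp of chromosome 8 from 11006482 to 11010065. The neighbouring peak, named 9530052E02Rik, scored 113.85, a ratio of 9.695. Next came Mir5620 (651.6) beside the chloride transporter gene Clcn4 (83.24), with a ratio of 7.828, and the protocadherin gene Pcdh7 (528.69) beside 4932441J04Rik (85.81), with 6.161. The linker histone gene H1f0 scored 803.14 beside Gcat (136.37), the p38 kinase gene Mapk14 482.31 beside Slc26a8 (83.67), and the forkhead gene Foxf1 768.76 beside its neighbouring non-coding RNA Fendrr (138.55), with ratios of 5.889, 5.764 and 5.549. In 3 of these 6 pairs a coding gene stood above a long non-coding RNA, and in 1 a microRNA name stood above a coding gene.

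The 4 most even pairs had low to middling scores. Ankrd13b and Git1, a regulator of Arf GTPases, scored 109.28 and 111, with a ratio of 1.016. Sptbn4, a spectrin of axon initial segments, and the biliverdin reductase gene Blvrb scored 174.28 and 180.1. Gcc1 and Arf5, both of the Golgi, scored 139.63 and 135.04. Taf4a and 4921531C22Rik, with a ratio of 1.051, were the fourth. The highest of these 8 scores, 180.1, was below the list's median.

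The 12 pairs with the highest lower score had both peaks above the list's median. Cdk2ap2, which binds the kinase Cdk2, scored 441.6 on chromosome 19 from 4096708 to 4097855, and Pitpnm1, a phosphatidylinositol transfer protein gene, 562.23 from 4099745 to 4101247. Nptx1, the neuronal pentraxin of synapses, scored 521.48 on chromosome 11 from 119407971 to 119409502, and Gm11762 beside it 423.77. Cramp1l and the intraflagellar transport gene Ift140 scored 354.94 and 396.46, and the Ras-like gene Rasl10a and the cytoskeletal linker gene Gas2l1 449.92 and 343.4. In these 4 pairs the ratio stayed at or below 1.31.

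Among the other 8 were Wnt7b, a Wnt ligand (316.61), with AU022754 (603.06), and Sgms1 with 2700046G09Rik. Sart3, which recycles spliceosome parts, scored 549.19 and Iscu, the scaffold of iron-sulfur cluster assembly, 284.53. Dexi scored 323.8 and Clec16a, a gene of mitophagy, 295.86. The ribosomal protein gene Rpl35 scored 359.05 and the Arp2/3 subunit gene Arpc5l 272.81. Ube2cbp scored 267.52 and Dopey1 477.72, and Hist2h2aa1 329.56 and Hist2h3c2 536.41. The remaining pair, Tshz1 (268.28) with Zadh2 (617.89), involves a factor of bulb neuron maturation, and the peak of the neighbour was the higher.

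Genes of a fixed list of transcription factors, drawn up for forebrain interneurons, were in 3 pairs. Of 50 genes of that list named by a peak, 3 (6.0%) were members, against 236 of all 13350 gene names (1.77%), and no test was made on counts this small. Besides Tshz1 they were Emx2 and Dlx2, a homeobox gene of GABAergic neurons. Emx2 is a homeobox gene of the forebrain that is not particular to interneurons, so the list is broader than its name. Emx2 scored 456.43 and its opposite-strand transcript Emx2os 248.01, with 269 bp between them. The Dlx2 peak of its pair scored 142.27 and the peak named Dlx1as, the antisense transcript of Dlx1, 94.25; another Dlx2 peak, outside the pair, scored 830.13. From the list of neuroblast migration and guidance only the kinase gene Cdk5 was a member (1 of 33), with 123.64 beside Slc4a2 (88.21). The list of GABA and dopamine phenotype had none (0 of 17).

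Names of opposite-strand or antisense transcripts recurred in 5 pairs by the form of the name. These pairs held 5 of 57 such names (8.77%), against 1.77% of all names. A name of this form implies another named gene close by, which favours membership under the pair rule. By how much was not tested, and the count is small. In 4 of the 5 pairs a homeobox gene was the partner: Emx2, Dlx2, Nkx2-2, a factor of ventral neural progenitors, and Msx1, a factor of dorsal and craniofacial development. Msx1 scored 687.26 beside Msx1os (130.63), and Nkx2-2 189.02 beside Nkx2-2os (217.03). The fifth, Grin1os (317.6), lay beside Lrrc26 (110). Within the pair, the homeobox gene was the higher peak in 3 of the 4. Nespas, an antisense transcript of the imprinted Gnas locus, scored 217.84 and the adjacent Gnas peak 83.78, while the 3 other Gnas peaks scored 205.47, 634.21 and 895.58. The peaks of the imprinted genes Sgce and Peg10 scored 109.28 and 83.2. Both pairs were picked once the values were known.

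Across all pairs of a coding gene with a long non-coding or antisense RNA, 28 in number, the coding gene had the higher peak in 16. Its score had a median of 256.755, against 190.485 for the RNA. Of the 17 of these pairs with known strands, 13 were head to head, 3 pointed the same way and 1 was tail to tail. Both genes were coding in 82 pairs, of which 46 of 64 with known strands were head to head. In 3 pairs both were long non-coding RNAs, 5 held a microRNA and 1 an unmatched name. A strand-specific signal is not part of such data, so which of the 2 transcripts a peak serves cannot be told apart.

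Histone genes made up the group with the highest share of members. Of 52 histone names in the list, 10 (19.2%) belonged to 6 pairs, against 1.77% of all names. They lie in dense clusters of near-identical genes, so reads may be split between copies. In 5 pairs both genes were histones. These were Hist2h2aa1 and Hist2h3c2, Hist1h2ao (421.79) and Hist1h4n (85.05), Hist1h4n at another of its peaks (316.69) and Hist1h2br (243.49), Hist1h2ai (278.56) and Hist1h3h (195.94), and Hist1h2ac and Hist1h2bc. The sixth held H2afz, the variant histone H2A.Z, which scored 796.72 beside the chaperone gene Dnajb14 (238.9).

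Genes of the list of DNA repair and replication were members in 4 of 82 cases (4.88%), against 1.77% of all names. Ung, the uracil-DNA glycosylase, scored 722.75 on chromosome 5 from 114580246 to 114581876. Its head-to-head neighbour Alkbh2, itself an enzyme of alkylation repair but not counted among the 4, scored 213.01. Tdp1, which clears topoisomerase from DNA, scored 470.95 beside Efcab11 (91.17). Fancm, of the Fanconi anaemia pathway, scored 225.92 beside Fkbp3 (418.47). With Lig4 and Abhd13, all 4 pairs were head to head, against 70.5% of all pairs with known strands. The listed gene (Ung, Tdp1, Fancm or Lig4) had the higher peak in 2 of the 4 pairs.

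Housekeeping groups gave between 0 and 3 members each, to be read against the 1.77% of all names. Genes of splicing and general transcription had 3 of 127 (2.36%), namely Taf4a and the RNA polymerase subunit genes Polr2h (383.03, beside Clcn2 with 151.62) and Polr1d (219.77, beside Lnx2 with 202.79). Proteasome genes had 2 of 33 (6.06%), Psmc2 (95.04, beside Dnajc2 with 355.58) and Psme1 (163.91, beside Fitm1 with 99.47). Respiration had 1 of 62 (1.61%), Ndufa11 (109.34, beside Vmac with 102.87), the cytosolic ribosome 1 of 71 (1.41%), Rpl35, and the Zfp zinc finger genes 1 of 228 (0.439%), Zfp593 (126.84, beside Grrp1 with 517.06). Mitochondrial ribosomal proteins (46 names), translation factors (53) and aminoacyl-tRNA synthetases (23) had none (0). Transcripts with Rik or Gm names had 27 of 1160 (2.33%), among them Gm2694 (666.65) beside Cbln1, a synapse organiser gene (138.05). There were 6 of 319 (1.88%) names of small RNAs and their hosts. Of these, Mirc35hg scored 642.33 beside BB283400 (120.41), Mir6919 122.89 beside Ltc4s (312.85) and Mir702 120.24 beside Plod3 (335.28).

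Most member genes had no peak beyond the pair. Of the 236 names, 175 (74.2%) were on 1 placed peak, against 9574 of 13350 (71.7%) over all names. Lmx1b, a LIM homeobox gene, had the most, 8 peaks. Pairs lay on 19 of 21 chromosomes, all but X and Y (0 pairs each), with 789 and 2 peaks there. Chromosome 11 held 16 pairs, or 1.13 per 100 peaks, and chromosome 5 held 15, or 1.10 per 100 peaks. Chromosome 14 was lowest of the autosomes with 1 pair, or 0.149 per 100 peaks.

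Promoter windows of the members held GC boxes at a share near that of other genes named by a peak, and far more often than those of coding genes named by none. A window was matched for 193 of the 236 names, and in 83 pairs for both genes. Taking for each gene the window nearest to its partner, 117 of 165 windows (70.9%, exact 95% interval 63.3 to 77.7%) held a GC box, GGGCGG on either strand. The share was 88 of 122 (72.1%) for head-to-head genes and 29 of 43 (67.4%) for the other members. Over the first listed window of each gene it was 68.9% of members, 62.4% of 10006 other genes named by a peak, 24.5% of 7882 coding genes named by none, and 35.9% of all 27025 genes. The 62.4% of other named genes lay inside the exact interval of the members by their first listed window (61.9 to 75.4%) and just below that by the window nearest to the partner. No test was made. By the window nearest to the partner, the longer form GGGGCGGGG, which contains GGGCGG, was in 36 of 122 head-to-head windows (29.5%). It was in 16.3% of the 43 windows of the other members. By the first listed window it was in 25.9% of members (interval 19.9 to 32.7%) and 22% of other named genes.

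The other motifs are given for head-to-head members by the window nearest to the partner, and for all other genes by the first listed window, so the windows were not chosen alike. Letters of an ETS site (CCGGAAG) were in 18.9% of head-to-head member windows, 14.3% of those of other named genes and 8.34% of those of coding genes without a peak. The core of the NRF1 site (GCGCATGCG) was in 6.56%, 3.30% and 1.14%, and TATAAA in 4.10%, 8.39% and 19.7%. The CCAAT box (CCAAT) was in 39.3%, 37.6% and 40.8%. By the first listed window of all 193 members, the shares were 16.6% for the ETS letters, 4.66% for the NRF1 letters, 6.74% for TATAAA and 39.4% for CCAAT. All were searched on both strands in windows of the same length, the shares over all 32851 windows being 35.7% for GGGCGG, 11.4% for its longer form, 37.4% for CCAAT, 8.86% for the ETS letters, 13.6% for TATAAA and 1.75% for the NRF1 letters. Head-to-head member windows had a median of 62.3% GC and 23 CpG, other named genes 61.7% and 21, and coding genes without a peak 49.7% and 4. Windows of 1 pair can overlap, and a match of letters is a description, not a binding site.

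**Figure D5:**
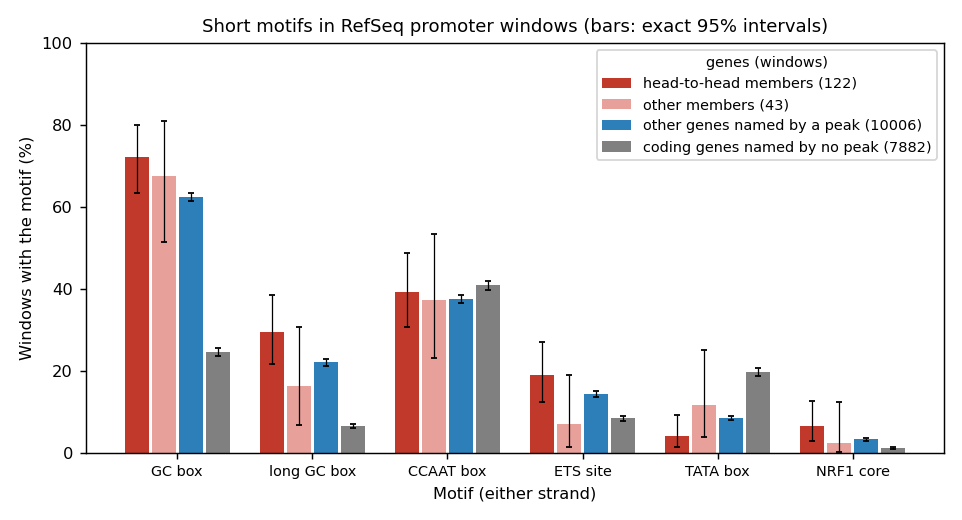
Share of RefSeq promoter windows (y axis, percent, with exact 95% intervals) that hold each of 6 short motifs (x axis), for head-to-head and other members (window nearest to the partner) and for other genes named by a peak and coding genes named by none (first listed window). For the GC box the bars stand at 72.1%, 67.4%, 62.4% and 24.5%, and for the TATA box at 4.10%, 11.6%, 8.39% and 19.7%.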

How the data were processed

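Chromatin of newborn CD1 olfactory bulb was crosslinked (1% formaldehyde, 10 min) and sheared to 200 to 1000 bp, and libraries were read as 150-base paired ends, per the labels' protocols. Bowtie2 2.2.4, MACS 1.4.2 and mm9 are named, with no role, per the submitters' processing notes. The authors deposited 1 list of shared peaks with a peak score of unstated formula and positions in bp; the rule of sharing and naming and the sequencing depth are not stated there. Peaks were sorted, paired and matched by name (Python 3.11.15, pandas 2.3.3, scipy 1.17.1). Gene order, strand and promoter windows came from RefSeq GRCm38.p6; no position was moved between builds. Intervals are exact Clopper-Pearson at 95% and cover counting error only. No test between samples was possible. The pair search was checked on simulated data. Pairs named are the 12 with the highest lower score, the 8 smallest gaps, the 6 highest and 4 lowest score ratios, textbook pairs, up to 4 per gene group, 3 on each side of the limit and the 6 longest shared windows; others were chosen after their values were seen. The pairs and gene lists were chosen with earlier results of these data known. Alternatives were other gap limits, runs kept, higher scores, coding genes, pairs sharing no peak, direct neighbours, a longer motif and a longer shared stretch.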

Additional observations from a re-analysis of the deposited data

How the results depend on the processing

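The number of pairs follows the limits by construction: 75 with gaps under 1000 bp, 345 with gaps under 5000 bp, 25 with both peaks at or above the median score, and 178 with dense runs kept. The head-to-head share was 83.9% with gaps under 1000 bp and 58.2% under 5000 bp, and stayed between 60.3% and 75% under the other planned settings. Counting neither crossing starts nor starts over 5000 bases apart, an alternative chosen after seeing the data, gave 63.6%. Direct neighbours made up 63.5% with gaps under 1000 bp and 92.7% of coding pairs in the order of coding genes. The median score ratio was 1.5 with both peaks at or above the median score, which leaves out the lowest scores. The longer GC box was in 26.1% of member windows. The cause of the other shifts was not tested. Requiring 50 shared bases in place of 20 left the overlap of head-to-head promoter windows at 26.2%. The shortest overlap was 100 bases, for Capza1 and St7l, so this setting could not change the share. No paired analysis was possible because the list holds no value per library; leaving out a library could not be run for the same reason. Since depth is unknown, a gene without a name may have a peak too weak to be listed.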
